A study of Mus musculus with 6 samples.

Results

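Hepatokines are proteins that the liver releases into the blood and that act on metabolism in other organs. Followed here in the mouse liver were 8 genes of this kind: Fgf21, Gdf15, Angptl8, Lect2, Fetub, Ahsg, Inhbc and Inhbe. Members were the rows of the deposited gene count table whose gene name equals one of these symbols. By name 7 were found, and Angptl8, listed under its older name Gm6484, was matched by its Ensembl identifier ENSMUSG00000047822. The 8 genes are among 43346 in the table, and all 8 are among the 19352 genes with enough counts to be tested. RNA came from whole livers of mice that all ate the FFC diet, used here as a dietary model of metabolic dysfunction-associated steatohepatitis, and the vector was an adeno-associated virus of serotype 8 (AAV8). Libraries 2, 3 and 2600 carry the label of a short hairpin RNA (shRNA) against S100a11, a small calcium-binding protein, with a genotype given as knockdown. Libraries 28, 30 and 31 carry the label of a scrambled shRNA with a control genotype. The labels give neither strain, age, sex and time after the vector nor the promoter of the hairpin, and no label states that each sample is a different animal. The p-values therefore cover only the spread among these 6 samples, which may be technical.

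FGF21 is released in fasting, in nutrient stress and under PPARA, the fatty acid-sensing nuclear receptor of hepatocytes, and signals through FGF receptors with the co-receptor beta-Klotho. GDF15 is a stress hormone that acts on the hindbrain, ANGPTL8 is made after feeding and acts on lipoprotein lipase, and LECT2 is a leukocyte chemotactic protein of hepatocytes. Fetuin-A (Ahsg) and fetuin-B (Fetub) are plasma proteins of the cystatin superfamily. Inhbc and Inhbe encode the liver-enriched beta C and beta E subunits of activins, dimeric ligands of the TGF-beta superfamily. The comparison of the libraries asks how silencing of S100a11 alters such transcripts in this diet model.

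The libraries held 53517387 to 78091845 counts over genes. S100a11 stood at 16.0, 3.55 and 3.41 CPM (counts relative to a library size scaled by TMM, edgeR's factors for composition) in libraries 2, 3 and 2600, and at 15.9, 22.9 and 30.0 CPM in scrambled libraries 28, 30 and 31. The log2 change of S100a11 was -1.57 ± 0.56 (SE, edgeR adjusted p = 0.095), and -2.75 without library 2. Library 2 thus goes against its label, and each direction below is that of the libraries labelled S100a11 shRNA. A single non-coding gene, Gm26917, made up 3.99% (library 2), 6.44% (3) and 10.8% (2600) of the counts, beside 3.16% to 4.42% with the scrambled shRNA. The median log2 change of all tested genes was 0.04 with TMM and -0.32 when libraries were scaled by their totals alone, so counts with library totals alone are given beside each list where they differ.

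The sequence before a gene's start is shown for 4 members, since 3 of them share an element that the 8 members were searched for. These are Fgf21, Angptl8 and Inhbe, and Inhbc is set beside its neighbour Inhbe. Each run holds the 250 bases before the RefSeq start of the gene (build GRCm38.p6), read along the gene's own strand. Capitals mark matches to the letters TGATGNAA, the composite site of C/EBP and ATF factors such as ATF4, to the E-box CACGTG and to the TATA box TATAAA, each searched on both strands.
Fgf21 (chr7:45615491-45615740, minus strand): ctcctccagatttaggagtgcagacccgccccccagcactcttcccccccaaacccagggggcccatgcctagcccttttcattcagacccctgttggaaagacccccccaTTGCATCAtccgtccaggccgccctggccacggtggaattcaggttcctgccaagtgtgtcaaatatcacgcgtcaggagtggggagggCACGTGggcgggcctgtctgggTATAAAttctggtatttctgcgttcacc
Angptl8 (chr9:21835260-21835509, plus strand): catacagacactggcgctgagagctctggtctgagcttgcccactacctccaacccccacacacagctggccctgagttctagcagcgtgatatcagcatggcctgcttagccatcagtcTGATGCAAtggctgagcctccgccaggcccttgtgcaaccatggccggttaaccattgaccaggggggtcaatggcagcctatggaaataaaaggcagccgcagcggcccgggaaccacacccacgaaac
Inhbe (chr10:127351849-127352098, minus strand): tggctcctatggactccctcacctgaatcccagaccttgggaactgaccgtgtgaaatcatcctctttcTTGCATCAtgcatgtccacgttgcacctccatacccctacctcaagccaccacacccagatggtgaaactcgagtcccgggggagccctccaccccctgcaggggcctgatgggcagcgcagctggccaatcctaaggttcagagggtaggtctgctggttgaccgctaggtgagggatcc
Inhbc (chr10:127370549-127370798, minus strand): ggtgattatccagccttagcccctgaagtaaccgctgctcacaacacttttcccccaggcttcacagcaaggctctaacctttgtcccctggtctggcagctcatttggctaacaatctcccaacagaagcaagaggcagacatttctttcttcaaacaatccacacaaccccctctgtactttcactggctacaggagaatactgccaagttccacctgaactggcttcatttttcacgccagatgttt

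The C/EBP-ATF letters occurred in the windows of Fgf21 (139 to 132 bases before the start), Angptl8 (130 to 123) and Inhbe (181 to 174). They were found in 3.45% of 32851 mouse promoter windows of the same length. In Fgf21 and Inhbe the match was the same string on the opposite strand, TTGCATCA. The Fgf21 window also held an E-box, found in 6.02% of windows, and a TATA box, found in 12.4%. Fetub held a TATA box and the second start of Gdf15 an E-box. Both longer patterns, AGGTCA repeated with 1 base between and the HNF1 letters GTTAAT and ATTAA with 1 base between, were in no window of the 8 genes and in 0.0335% and 0.0609% of all windows. A match is a string of letters, and no binding was measured here.

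Levels of different genes were compared per gene length, as TPM, a share of all transcripts of the library. Ahsg was the most abundant of the 8 in every library (5403 ± 250.4 TPM with S100a11 shRNA and 5744 ± 475 TPM with scrambled shRNA, SD, n = 3 each) and ranked 19 among all genes by its mean. Fetub came next in every library, with a mean of 399 TPM over the 6 libraries. The order of the next 3 differed between groups. With S100a11 shRNA, Lect2 (213 TPM), Inhbe (116) and Angptl8 (99.5) kept this order in every library. With scrambled shRNA the means were 172, 180 and 246 TPM, and Angptl8 was above both others in libraries 28 and 30 and below both in 31. Inhbc (55.3), Gdf15 (42.6) and Fgf21 (35.8) were lowest. In the libraries labelled S100a11 shRNA Fgf21 was last of the 8 throughout, whereas it ranked 6 of 8 in scrambled libraries 28 and 30 and last in 31. The rank of Inhbe depends on gene length: the table gives 2135 bases, GENCODE M21 gives 5319, and with the latter its mean is 59.5 TPM, beside 58.5 for Inhbc.

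Of the 8 genes 1 fell and 2 rose at an edgeR adjusted p under 0.05, against 14.1% of all tested genes called in either direction (5.82% higher and 8.28% lower). Fgf21 fell, and Inhbc and Fetub rose. The groups did not overlap in 4 of the 8 genes, the 3 called ones and Ahsg, against 34.7% of all tested genes. This separation depends on the scaling. With library totals alone 3 genes did not overlap, Fgf21, Inhbc and Gdf15, against 43.2% of all tested genes, and by TPM 2 did not, Fgf21 and Gdf15, against 42.9%. The same 3 genes were called without library 2, where 21.1% of genes were called. Counts of higher members rested on single libraries: 1 without library 3 or without scrambled library 31, and 0 without scrambled library 30 or with library totals alone. Without these 3 libraries, in that order, 5.12%, 5.57% and 3.66% of all genes were called. Without library 2600 or scrambled library 28 the counts were again 2 and 1, with 10.4% and 7.74% of all genes called. Without library 2600 the 2 higher genes were Inhbc and Lect2, and Fetub was not called. In whole liver, fewer cells of a type and less RNA per cell cannot be told apart.

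**Figure D1:**
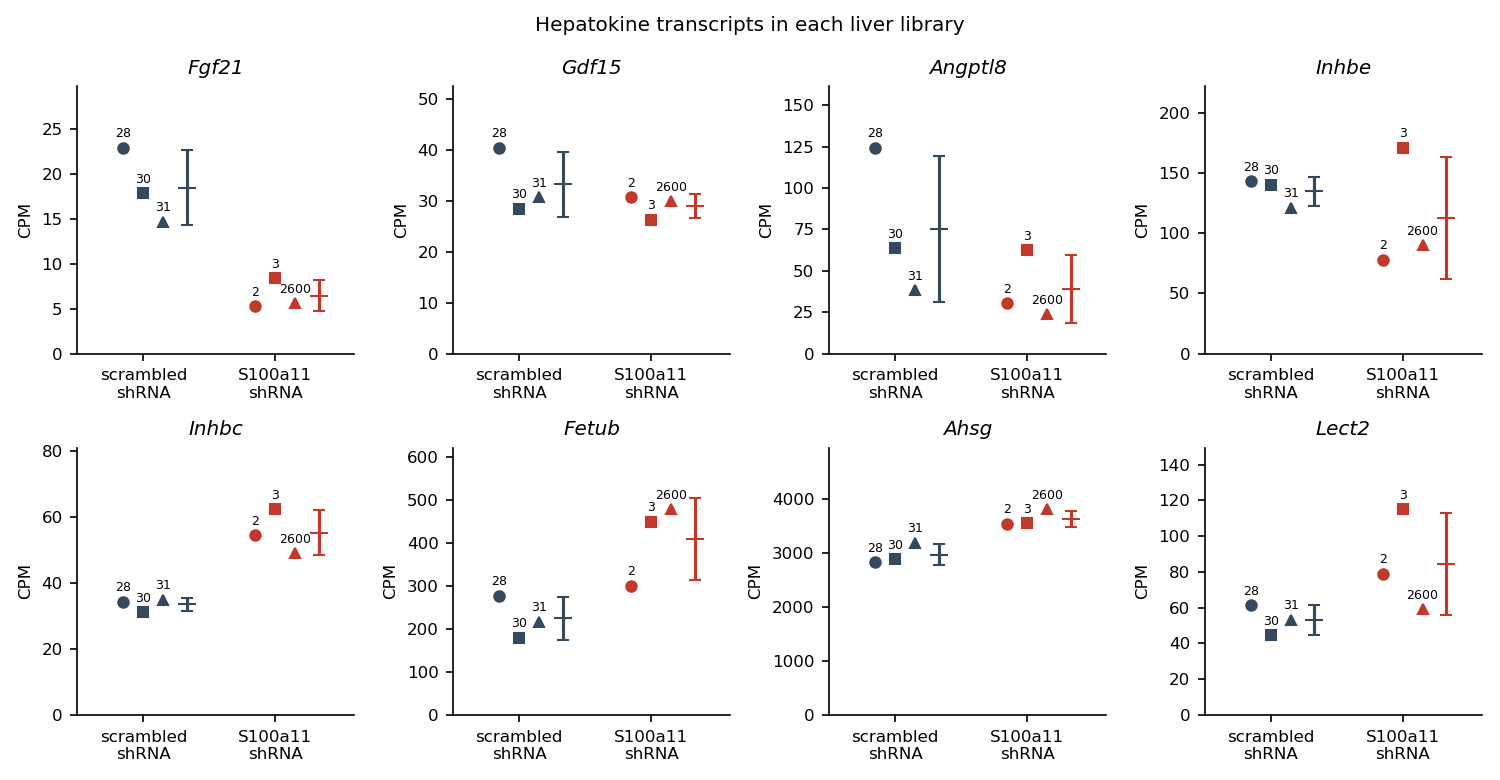
CPM of the 8 genes in each library (y axes, linear from 0), with library numbers beside the points and the mean ± SD of 3 libraries to the right of each group. Fgf21 lies at 5.28 to 8.41 CPM with S100a11 shRNA and at 14.7 to 22.9 CPM with scrambled shRNA, while Gdf15, Angptl8, Inhbe and Lect2 overlap.

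Fgf21 (ENSMUSG00000030827, chromosome 7, 45613907 to 45615490 in mm10) showed the largest change of the 8. It stood at 5.28, 8.41 and 5.62 CPM in libraries 2, 3 and 2600 and at 22.9, 17.8 and 14.7 CPM in scrambled libraries 28, 30 and 31. Every library labelled S100a11 shRNA was below every scrambled one, also with library totals alone and by TPM. Library 2, whose S100a11 was not low, had the lowest Fgf21 with TMM, and library 2600 with library totals alone (4.62 against 4.92 CPM) and by TPM. The means of 6.44 ± 1.72 and 18.5 ± 4.15 CPM (SD, n = 3 each) gave a log2 change of -1.52 ± 0.24 (SE, 95% interval -2.05 to -0.98), or 2.87-fold lower (edgeR adjusted p = 0.0069). Fgf21 was the only member called under all 16 alternative settings, with log2 changes from -1.88 to -1.33. The window before its start is the one above with a C/EBP-ATF element, an E-box and a TATA box. The acinar pancreas is another source of Fgf21. The sum of its 6 markers was 2.52 to 3.05 CPM with S100a11 shRNA. It was 3.42, 3.15 and 9.38 CPM in scrambled libraries 28, 30 and 31. Of the 3 tested markers 1, Cpa1, fell, and 2 fell with library totals alone. Without scrambled library 31 the log2 change of Fgf21 was -1.66, and the part of the markers in it was not tested.

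Gdf15 (ENSMUSG00000038508, chromosome 8, 70629393 to 70632456), which like Fgf21 is known as a hormone of mitochondrial and endoplasmic reticulum stress, was not called. It stood at 30.7, 26.2 and 29.9 CPM in libraries 2, 3 and 2600 and at 40.4, 28.4 and 30.7 CPM in scrambled libraries 28, 30 and 31. With TMM the groups overlapped, and only scrambled library 28 lay apart from the other 5, whereas with library totals alone every library labelled S100a11 shRNA was lower. The log2 change was -0.20 ± 0.16 (SE, 95% interval -0.57 to 0.17, edgeR adjusted p = 0.47). With library totals alone it was -0.55 (adjusted p = 0.039), and without scrambled library 28 it was -0.03. A fall as deep as that of Fgf21 lies outside its interval.

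Angptl8 (chromosome 9, 21835510 to 21837346) varied most between libraries of 1 group. It stood at 30.4, 62.3 and 23.6 CPM in libraries 2, 3 and 2600 and at 124, 63.4 and 38.4 CPM in scrambled libraries 28, 30 and 31. The coefficient of variation was 53.2% and 58.6% in the 2 groups, and library 3 was level with scrambled library 30. The log2 change of -0.96 ± 0.45 (SE, 95% interval -1.98 to 0.07) did not pass (edgeR adjusted p = 0.20) and was not called under any of the 16 alternatives. Without scrambled library 28 it was -0.39, and without library 3 it was -1.49. Angptl8 lies in an intron of Dock6 on the opposite strand, with no shared exon bases, and Dock6 stood at 77.9 to 163 CPM. The libraries are stranded but the strand setting of the counting is not given, so a share of unspliced Dock6 reads in Angptl8 was not tested. Angptl8 is also made by fat. Of its 5 markers Cfd was called higher (9.45, 47.4 and 23.6 CPM in libraries 2, 3 and 2600 against 2.41 to 3.25 CPM), and Adipoq, Lep, Plin1 and Retn reached at most 0.32, 0.59, 0.34 and 0.11 CPM, each in library 3. Their part in the Angptl8 values was not tested.

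Inhbc and Inhbe lie 1911 bases apart on the minus strand of chromosome 10 in GENCODE M21. Their deposited coordinates are 127356328 to 127370544 and 127349402 to 127351772. Of the pair only Inhbc was called, and their changes were not compared by a test. Inhbc, the activin beta C subunit, stood at 54.6, 62.4 and 49.0 CPM in libraries 2, 3 and 2600 and at 34.3, 31.3 and 35.0 CPM in scrambled libraries 28, 30 and 31. With TMM and with library totals alone all 3 libraries labelled S100a11 shRNA were above the scrambled ones, whose spread was small. By TPM the groups overlapped, with library 2600 at 49.9 and scrambled library 31 at 50.1 TPM. Inhbc was 1.65-fold higher (means of 55.3 ± 6.75 and 33.5 ± 1.99 CPM, SD, n = 3 each). Its log2 change was 0.72 ± 0.14 (SE, 95% interval 0.41 to 1.03, edgeR adjusted p = 0.012). The call was lost with library totals alone (log2 change 0.37, adjusted p = 0.11) and without scrambled library 30 (0.67, adjusted p = 0.072). It was near the threshold without library 3, 28 or 31 (edgeR adjusted p = 0.0499, 0.046 and 0.045).

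Inhbe, the activin beta E subunit, stood at 77.7, 171 and 89.9 CPM in libraries 2, 3 and 2600 and at 143, 140 and 121 CPM in scrambled libraries 28, 30 and 31. With TMM libraries 2 and 2600 were below all scrambled libraries and library 3 was above them. With library totals alone and by TPM library 3 lay within the scrambled range. Scaled by totals it stood at 153 CPM, beside 157 and 167 CPM in scrambled libraries 28 and 30. The log2 change was -0.26 ± 0.27 (SE, 95% interval -0.87 to 0.36, edgeR adjusted p = 0.57). It was -0.69 without library 3 (adjusted p = 0.054) and -0.62 with library totals alone (adjusted p = 0.14). With TMM library 3 held the most Inhbe of the 6 libraries. Among the libraries labelled S100a11 shRNA it also held the most Fgf21, Angptl8, Lect2 and Inhbc. Within a library the ratio of Inhbe to Inhbc, which needs no scaling between libraries, was 1.31, 2.52 and 1.69 for libraries 2, 3 and 2600, from TPM. It was 3.83, 4.13 and 3.18 for scrambled libraries 28, 30 and 31. The groups of ratios did not overlap, and their means differed by -1.06 on the log2 scale. The share of other gene pairs whose ratios do not overlap was not computed. For single tested genes by TPM it was 42.9%. Of the pair, Inhbe has the C/EBP-ATF letters before its RefSeq start and Inhbc has none of the 5 patterns searched. GENCODE M21 extends Inhbe to base 127354411, so there the Inhbe window lies within the gene. Whether the letters bear on the difference was not tested.

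Fgf21 and Gdf15 were compared in the same way, a pair chosen after their values were seen. Their ratio from TPM was 0.34, 0.64 and 0.37 in libraries 2, 3 and 2600 and 1.13, 1.25 and 0.95 in scrambled libraries 28, 30 and 31. Scrambled libraries thus held about as much Fgf21 as Gdf15 per length, and the others held less in each case. For Fetub to Ahsg, neighbours on chromosome 16, the ratio was 0.065, 0.098 and 0.097 against 0.075, 0.048 and 0.052, and the groups overlapped because library 2 lay below scrambled library 28. Such ratios show unequal change of 2 transcripts and not which of them changed.

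**Figure D2:**
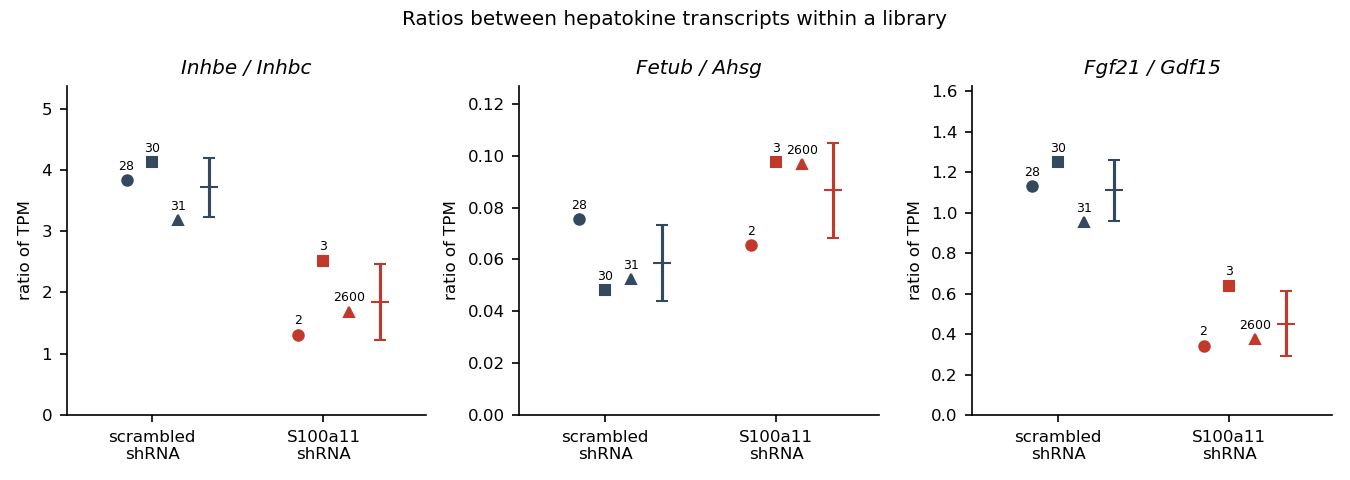
Ratios of TPM between 2 hepatokine transcripts within each library (y axes, linear from 0), with library numbers at the points and mean ± SD of 3 libraries beside them. Inhbe to Inhbc and Fgf21 to Gdf15 do not overlap between groups, at 1.31 to 2.52 against 3.18 to 4.13 and at 0.34 to 0.64 against 0.95 to 1.25, while Fetub to Ahsg overlaps. The share of other gene pairs without overlap was not computed.

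Fetub (ENSMUSG00000022871, chromosome 16, 22918382 to 22939766), an inhibitor of astacin proteases, rose. It stood at 300.4, 450 and 479 CPM in libraries 2, 3 and 2600 and at 277, 179.9 and 217 CPM in scrambled libraries 28, 30 and 31. Libraries 3 and 2600 lay well above the scrambled range, and library 2 was close to scrambled library 28. The change was 1.82-fold (means of 409.6 ± 95.7 and 225 ± 49.1 CPM, SD, n = 3 each). The log2 change was 0.87 ± 0.22 (SE, 95% interval 0.36 to 1.38, edgeR adjusted p = 0.036). The call was lost with library totals alone (0.50, adjusted p = 0.093) and without any one of libraries 3, 2600, 30 and 31 (adjusted p of 0.088 to 0.14). Without library 2 the log2 change was 1.01 (adjusted p = 0.0058).

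Ahsg (ENSMUSG00000022868, chromosome 16, 22892042 to 22899438), an abundant inhibitor of calcification, varied least. It stood at 3538, 3550.3 and 3809 CPM in libraries 2, 3 and 2600 and at 2831, 2885 and 3189 CPM in scrambled libraries 28, 30 and 31. With TMM the groups did not overlap, yet the log2 change of 0.29 ± 0.22 (SE, 95% interval -0.21 to 0.80) was not called (edgeR adjusted p = 0.43). With library totals alone it turned to -0.07 and the groups overlapped. A change as large as that of Fgf21 lies outside its interval. GENCODE M21 places a further antisense gene over 62 exon bases of Ahsg and another over 268 of Inhbc, which were not analysed here.

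Lect2 (ENSMUSG00000021539, chromosome 13, 56542460 to 56548538), a known beta-catenin target in the liver, stood at 79.0, 115 and 59.0 CPM in libraries 2, 3 and 2600. In scrambled libraries 28, 30 and 31 it stood at 61.5, 44.7 and 53.2 CPM. With TMM library 2600 lay within the scrambled range and libraries 2 and 3 lay above it. With library totals alone library 2600 (48.5 CPM) lay below the scrambled range of 53.3 to 67.7 CPM. The log2 change of 0.67 ± 0.24 (SE, 95% interval 0.13 to 1.20) did not pass (edgeR adjusted p = 0.096). It was called without library 2600 (0.85, adjusted p = 0.034) and by limma voom with quality weights (0.77, adjusted p = 0.044). The change was 0.38 without library 3 and 0.32 with library totals alone (edgeR adjusted p = 0.36).

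**Figure D3:**
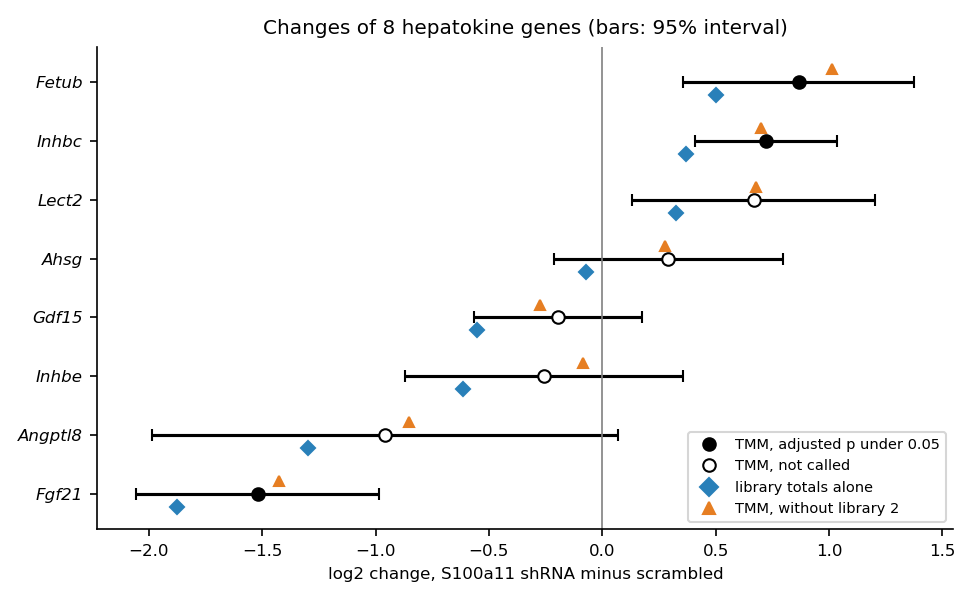
log2 change of each gene, S100a11 shRNA minus scrambled (x axis), with its 95% interval, filled where the edgeR adjusted p is under 0.05, beside the values with library totals alone and without library 2. Fgf21 lies at -1.52 with TMM and at -1.88 and -1.43 under these alternatives, and Ahsg changes sign with library totals alone.

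Counts in each list stand against 5.82% of all tested genes called higher and 8.28% called lower. Of 12 factors known to act on the Fgf21 promoter 4 rose and 0 fell (median log2 change 0.44, against 0.04 for all tested genes). Ppara rose 1.70-fold (446 against 262 CPM, edgeR adjusted p = 0.012), as did Creb3l3, the hepatic CREBH factor (adjusted p = 0.016), and Nr1h4, the bile acid receptor FXR (adjusted p = 0.022). Atf4 had a log2 change of 0.37 (adjusted p = 0.085), and Ddit3, the stress factor CHOP, one of -0.22 (adjusted p = 0.42). The count of 4 was 1 without library 3, 28 or 31 and 0 without library 30, and it was 7 with DESeq2. Scaling by library totals alone gave 0 rises and 2 falls. Of 18 PPARA target genes 9 rose and 0 fell (median 0.84). The acyl-CoA thioesterase Acot1 rose 5.83-fold (adjusted p = 0.0030), the peroxisomal Pex11a 2.24-fold (adjusted p = 0.0060) and Slc25a20, which carries acylcarnitines into mitochondria, 1.83-fold (adjusted p = 0.0064). Fgf21, itself a PPARA target in fasting, fell in the same libraries. The count of 9 was 4 without scrambled library 28, 3 without 30, 6 without 31 or with library totals alone, and 15 with DESeq2.

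Targets of the integrated stress response, the ATF4 pathway that induces Fgf21, Gdf15 and Inhbe, moved both ways. Of 22 genes 4 rose and 5 fell (median log2 change -0.29). Atf3, a stress-induced factor, was 2.79-fold lower (4.64 against 13.0 CPM, edgeR adjusted p = 0.015), and Trib3, Slc7a11, Nupr1 and Aldh18a1 also fell. Cth, an enzyme of cysteine synthesis, rose 1.73-fold (adjusted p = 0.012) and Cebpb 1.81-fold (adjusted p = 0.022), and Shmt2 and Chac1 rose as well. Genes other than Cth, Atf3 and Cebpb were named after their values were seen. Asns stood at 0.31 against 0.52 CPM without passing. Without library 2 there were 4 rises and 8 falls. Without libraries 3, 2600, 28, 30 and 31 there were 2, 2, 2, 0 and 2 rises and 1, 3, 1, 1 and 0 falls, with upper-quartile factors 2 and 6, and with library totals alone 0 and 10. The GDF15 receptor subunits Gfral and Ret had too few counts to be tested. Of 10 tested genes, p53 itself and its targets, 0 were called by edgeR. Among them 2 had an unadjusted edgeR p under 0.05, and the median log2 change was -0.31. Lower calls were 1 with DESeq2, 3 with limma voom and quality weights, 3 without library 2 and 7 with library totals alone. The GDF15 receptor Gfral, a hindbrain gene, had 0 counts in all libraries, which allows up to 0.035 to 0.068 CPM (3 counts per library, counting error only).

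Receptors on which the hormones act were considered next. Of the 5 FGF21 receptor genes 1 fell and 0 rose (median log2 change -0.44): Fgfr2 stood at 58.6 against 85.0 CPM (edgeR adjusted p = 0.022), and this was no longer called once library 3, 28, 30 or 31 was left out. With upper-quartile factors or DESeq2 2 fell, and with library totals alone 3. Fgfr3 (log2 change -0.65, adjusted p = 0.053) and Fgfr4 (0.33, adjusted p = 0.19) were not called, nor was Klb, the beta-Klotho gene (24.4 against 22.6 CPM, adjusted p = 0.78). Of 17 activin and inhibin genes 1 rose and 3 fell (median -0.03). The activin receptor Acvr2b rose 3.06-fold (18.4 against 6.02 CPM, adjusted p = 0.013), and the activin-binding follistatin-like Fstl3 fell 5.45-fold (0.32 against 1.82 CPM, adjusted p = 0.014). Fstl1 fell 2.23-fold (adjusted p = 0.032), and the inhibin alpha gene Inha stood at 0.74 against 1.48 CPM (adjusted p = 0.048). These counts were 0 and 0 without library 3 or 30, 0 and 1 without 31, 1 and 2 without 28, 2 and 2 without library 2, 2 and 3 with quality weights, and 1 and 5 with library totals alone. The remaining beta subunits Inhba and Inhbb, at 8.45 against 11.5 and 5.60 against 5.08 CPM, were not called. Of 4 LECT2 receptor genes 1 rose, the hepatocyte growth factor receptor Met (138 against 91.6 CPM, adjusted p = 0.035), and 0 were called without library 2600, 28, 30 or 31 or with library totals alone.

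Of 12 beta-catenin targets of pericentral hepatocytes 5 rose and 0 fell (median log2 change 0.69), and the count was 4 to 7 when single libraries were left out and 5 with library totals alone. The glutamate transporter Slc1a2 and ornithine aminotransferase, Oat, rose 3.81-fold and 3.84-fold (edgeR adjusted p = 0.0032 and 0.0085), and the ammonium carrier Rhbg 3.37-fold (adjusted p = 0.0090). Lect2, with its log2 change of 0.67, lay near the median of these genes. Of 11 ANGPTL and lipase genes 1 rose and 1 fell. Lpl, lipoprotein lipase, fell 4.80-fold (adjusted p = 0.0035) and Angptl4 rose 1.97-fold (adjusted p = 0.022). The Angptl4 call was lost on leaving out library 3, 2600, 28 or 30, and with library totals alone. The list held 4 rises without library 2, with DESeq2 and with limma voom and quality weights, 2 without the filter, with limma voom and with the legacy fit, and 0 without library 3 or 30 or with library totals alone. Of 16 lipogenic, carbohydrate and insulin response genes, the setting in which Angptl8 is induced, 1 rose and 0 fell. This was Thrsp, 3.32-fold higher (adjusted p = 0.013). Srebf1 had a log2 change of 0.03 and Fasn one of -0.34 (adjusted p = 0.95 and 0.37). Without library 2, 3 rose and 2 fell, with DESeq2 3 and 0, without the filter or with quality weights 2 and 0, and with library totals alone 1 and 2.

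**Figure D4:**
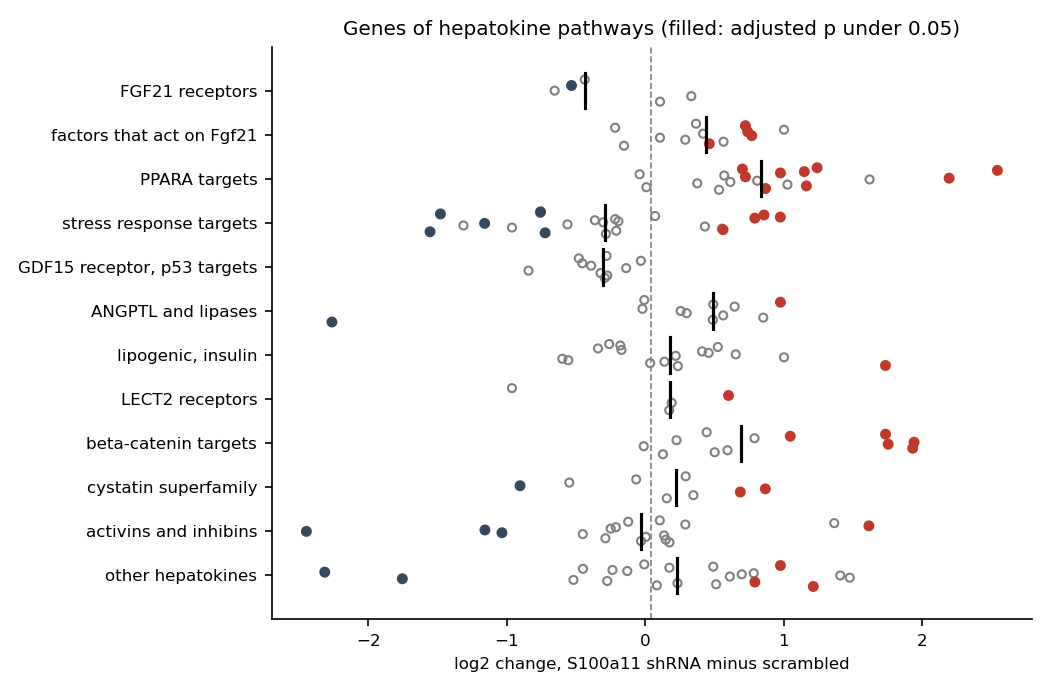
log2 change, S100a11 shRNA minus scrambled (x axis), of each tested gene in 12 lists around the hepatokines, filled red (higher) or dark blue (lower) where the edgeR adjusted p is under 0.05. Black bars are list medians and the dashed line the median of all tested genes, 0.04; PPARA targets lie mostly to the right of it, with a median of 0.84, and stress response targets lie on both sides.

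Among cystatin superfamily genes, Hrg, a histidine-rich neighbour of Fetub, rose 1.61-fold (edgeR adjusted p = 0.049), and Cstb, a cytosolic cathepsin inhibitor, was 1.87-fold lower (adjusted p = 0.049). With Fetub that made 2 rises and 1 fall among 8 tested genes. Without libraries 3, 2600, 30 or 31 there were none of either, without 28 there was 1 rise, and with library totals alone 1 fall. With RLE factors or the legacy fit there were 2 rises and 0 falls, and with upper-quartile factors, a floor of 1 CPM or the top 20 genes dropped 1 of each. Among 21 other hepatokines 3 rose and 2 fell. Lcn2, the acute-phase lipocalin, was 3.37-fold lower (adjusted p = 0.0045) and Gpnmb, which macrophages also make, 4.98-fold lower (adjusted p = 0.010), or -3.09 rather than -2.31 in log2 without library 2. Besides Angptl4, the retinol carrier Rbp4 and the proteoglycan Tsku rose (1.73-fold and 2.32-fold, adjusted p = 0.023 and 0.038), both named after their values were seen. Selenop, Igf1, Igfbp1, Hamp and 12 others were not called. No rise was left without library 3, 28 or 30 or with library totals alone, 1 was left without 31, and without library 2 there were 4 rises and 3 falls. Library totals alone gave 4 falls.

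The genes whose profile over the 6 libraries lay nearest to a member were found by the root mean square difference of centred log2 CPM. For Fgf21 they were Arntl2, a clock gene paralog (0.16), and Tex9 (0.17), set against a range of 2.11 for Fgf21 itself. Arntl2 stood at 1.91 against 4.84 CPM and Tex9 at 2.95 against 7.63 CPM, both lower in the libraries labelled S100a11 shRNA (edgeR adjusted p = 0.018 and 0.0074). For Inhbc they were Ppara (0.040) and Sec14l4 (0.050), and for Fetub the acyl-CoA synthetase Acsm1 (0.086) and Apoe (0.097). For Lect2 they were Nle1 (0.083) and Apol7a (0.11), and for Gdf15 Selenos (0.068), a selenoprotein of the endoplasmic reticulum, and Tspo (0.080). Ahsg was nearest to Prcc (0.024) and Mob2 (0.028), and Inhbe to Atp8b5 (0.13) and Recql4 (0.14). Angptl8 had no close match, its nearest genes being Mir2139 (0.33) and Nr0b2, the nuclear receptor SHP (0.37). Among the members themselves Lect2 and Inhbc were the nearest pair (0.21) and Fgf21 and Fetub the farthest (1.22). These distances describe 6 libraries that share the group difference.

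Sums of cell type markers separated the groups for some types and overlapped for others. The summed CPM of 10 hepatocyte markers was 48235 to 64909 with S100a11 shRNA and 38095 to 47988 with scrambled shRNA, with 1 of the 10, Serpina1a, called higher. Scaled by library totals alone the sums overlapped (39637 to 60504 against 45412 to 53210) and 0 were called, and DESeq2 called 3 higher. With TMM the sum was highest in library 2, and Alb itself stood there at 31082 CPM, beside 23585 and 21195 CPM for libraries 3 and 2600 and 18116 to 22845 CPM with the scrambled shRNA. Sums of 7 cholangiocyte markers were 122 to 140.2 against 467 to 574 CPM, with all 7 called lower. Sums of 7 stellate cell and myofibroblast markers were 358 to 552 against 666 to 904 CPM, with 4 called lower. This count stayed at 4 without library 2 and was 5 with library totals alone. It was 1 when library 3, 2600, 28, 30 or 31 was left out. Sums of 6 lymphocyte markers were 12.3 to 17.8 against 28.0 to 60.0 CPM, with 1 called lower. That count was 3 without library 2, with quality weights or with library totals alone, and 2 with DESeq2. With TMM the sums overlapped for 9 macrophage markers (226 to 439 against 415 to 638 CPM, with 3 called lower and 1 higher), 6 endothelial markers (525 to 779.6 against 503 to 581 CPM, with 1 called each way) and 4 neutrophil markers (at most 2.07 CPM, none called). The macrophage sums did not overlap with library totals alone (202 to 361 against 495 to 707 CPM, with 5 called lower and 1 higher). Neutrophil sums were then also lower in every library labelled S100a11 shRNA, with none called, and endothelial sums still overlapped. Fat markers summed to 9.50 to 48.8 against 2.52 to 3.28 CPM, nearly all of it Cfd. The part of these differences in the hepatokine changes was not tested.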

How the data were processed

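Liver RNA was depleted of ribosomal RNA and made into stranded libraries, per the labels' protocols. The authors deposited unnormalised counts for each Ensembl gene on build mm10, per the submitters' processing notes. Which aligner and counting tool were used, and with which strand setting, is not given in the sources used here. Gene lengths (unit other) are those in the deposited table. Symbols came from GENCODE M21 by Ensembl identifier (42462 of 43346 matched) and the sequences from RefSeq (GRCm38.p6), where all 8 members matched. No pair of libraries agreed within sampling noise (smallest chi-square, divided by the number of genes, 48.4).

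Counts were fitted in R 4.3.3 with edgeR 4.0.16: filterByExpr (minimum count 10, minimum total 15), TMM, glmQLFit with legacy=FALSE and glmQLFTest, with Benjamini-Hochberg adjustment over 19352 genes and a threshold of 0.05. The SE is the log2 change divided by the square root of F. TPM are counts divided by length, as a share of the library's sum. The fit was tested on simulated data. The 16 alternatives were RLE and upper-quartile factors, library totals alone, no filter, a floor of 1 CPM in 3 libraries, dropping the top 20 genes by count, the legacy quasi-likelihood (chosen after seeing the data), DESeq2 1.42.0, limma 3.58.1 voom with and without quality weights, and leaving out each library in turn.

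The members, lists and motifs were chosen with earlier results of these data known. Named genes are the members, S100a11, the 3 genes of smallest p in each list, genes overlapping a member, and for each member the 2 nearest genes (mean CPM of 2 or more, log2 CPM with a prior count of 2). Others are marked in the text as named after their values were seen or are given as values only. Figures used matplotlib 3.10.9.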

Additional observations from a re-analysis of the deposited data

How the results depend on the processing

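No paired analysis was possible because the groups share no replicate numbers. The Fgf21 fall kept its direction and its side of the threshold under all 16 alternatives. With library totals alone 4365 genes were called over the whole table, 0 members were called higher and 2 lower (Fgf21 and Gdf15). The S100a11 log2 change was -1.90 with library totals alone, -1.89 with limma voom and -2.24 with quality weights, each past the threshold, unlike -1.57 with TMM and edgeR. Leaving out each library in turn gave 724 to 4176 genes called over the whole table, 0 to 2 members called higher, and S100a11 log2 changes of -2.75 to -1.22, the first without library 2. Signs turned for genes that were not called. With library totals alone Ahsg was at -0.0709, Fgfr4 at -0.0375, Tie1 at -0.20, Prcc at -0.0521 and Mob2 at -0.0911. Recql4 was at 0.053 with quality weights. When single libraries were left out Recql4 ranged from -0.47 to 0.044, Tspo from -0.21 to 0.0075 and Nr0b2 from -0.67 to 0.22. The cause of each was not tested, beyond fewer libraries in those that leave one out. With 3 libraries per group, the 95% interval of the log2 change ran from -1.98 to 0.07 for Angptl8 and from -0.87 to 0.36 for Inhbe.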
